A study of Rattus norvegicus with 4 samples.

Results

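The genes described here are the fibroblast growth factor (FGF) ligands *Fgf4*, *Fgf5*, *Fgf8* and *Fgf19*, the receptors *Fgfr1*, *Fgfr2*, *Fgfr3* and *Fgfr4*, the receptor-like *Fgfrl1*, and *Frs2*, the docking protein that couples FGF receptors to their adaptors. They were taken by gene name from a count table of rat embryonic stem cells (ESCs), and they are 10 of its 34773 genes. The study compared transcriptomes to learn how *Thop1*, which encodes the peptidase thimet oligopeptidase, bears on the exit of ESCs from pluripotency. The 4 poly(A) RNA libraries came from DA-5-3GFP, the wild-type line DA-5-3 with a GFP reporter at *Rex1* (1 library), and from the *Thop1*-KO subclones #1, #2 and #3 (1 library each). Both groups carried the reporter, and the subclones were made from DA-5-3GFP with Cas9, each being a single clone grown out after puromycin selection. The study's methods have rat ESCs grown with feeder cells in 2i/LIF, a medium that holds the MEK inhibitor PD0325901, the GSK3 inhibitor CHIR99021 and the cytokine LIF. The medium and day of these libraries are not given separately, and the design text deposited with the data calls the cells haploid while the paper calls DA-5-3 diploid.

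FGFs are secreted factors that bind, together with heparan sulfate, to receptor tyrosine kinases, and the activated receptor phosphorylates FRS2, which recruits GRB2 and SOS and so switches on RAS, RAF, MEK and ERK. In rodent ESCs, FGF4 made by the cells themselves is the main input to this cascade, chiefly through FGFR1, and the cascade drives the exit from naive pluripotency. Of the other ligands, FGF5 marks the cells that have left the naive state, FGF8 acts in the gastrulating embryo, and FGF19, which the RefSeq gene table also lists as *Fgf15*, is an endocrine FGF.

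Each library held between 15405499 and 17936544 counts on genes. Counts were put on a common scale as TMM-normalized CPM (counts scaled to a common library total), and 15028 genes passed the filter on low counts. *Thop1* was at 370 CPM in DA-5-3GFP and between 92.5 and 149 in the subclones, in the direction of their labels. With 1 control library, the spread behind every test is that of the 3 subclones. An effect of genotype and a peculiarity of the control's culture or library cannot be told apart. Nor can genotype be told apart from the Cas9 transfection, puromycin selection and cloning, which are described for the subclones only. The smallest one-sided p-value of an exact permutation test is 0.25 for 1 library against 3. All adjusted p-values below therefore rest on the variance model of edgeR (quasi-likelihood test, Benjamini-Hochberg adjustment over all genes tested), and a gene was called at an adjusted p-value under 0.05.

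The cells' identity was checked with marker genes. The summed level of the 10 pluripotency markers in the table was 7862 CPM in DA-5-3GFP and between 6354 and 7955 CPM in the subclones. None of these markers was at 0. *Pou5f1* made up the largest part of this sum, at 4794 CPM in DA-5-3GFP, and 3 of the 10 were called by edgeR and by DESeq2. *Esrrb* (log2 fold change 4.30) and *Tfcp2l1* (2.89) were higher and *Utf1* (-1.51) was lower. Sums of the formative or primed markers were 149 against 267 to 365 CPM, of the primitive endoderm markers 860 against 1227 to 1790 CPM, and of the trophoblast markers 169 against 217 to 445 CPM. *Gata3* and *Krt7* of the trophoblast list were at 0 in every library. The fibroblast markers, which bear on the feeder cells, summed to 209 CPM in DA-5-3GFP and to 330, 663 and 421 CPM in #1, #2 and #3. Of the 8 fibroblast markers tested, edgeR called none, 3 had an unadjusted p-value under 0.05 and DESeq2 called 1, and *Thy1*, *Dcn* and *Lum* were at 0 in every library. Of the 5 tested formative or primed markers, 4 had an unadjusted p-value under 0.05, *Pou3f1*, *Dnmt3b* and *Zic2* being higher and *Lef1* lower. EdgeR called 1 higher (*Dnmt3b*) and DESeq2 called 2 (also *Zic2*). None of the 8 primitive endoderm markers was called by edgeR. Of these, 4 had an unadjusted p-value under 0.05, *Sox17*, *Dab2* and *Lama1* being higher and *Gata4* lower. None of the 3 trophoblast markers was called by edgeR and 0 had an unadjusted p-value under 0.05, and DESeq2 called none of either list. All 4 of these sums were higher in every subclone than in the control, but 3 of them were mostly 1 gene. In DA-5-3GFP these were *Lama1* for primitive endoderm (848 CPM), *Tfap2c* for trophoblast (140 CPM) and *Col1a1* for fibroblasts (190 CPM). Of the tested markers in these 4 lists, *Lef1*, *Gata4*, *Col4a1*, *Amn* and *Acta2* were lower in every subclone than in the control. *Cdh2*, *Cdx2* and *Col6a1* were lower in #1 and #3 only, and *Eomes* in #1 only. The part of these cell types in the results below was not tested.

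Transcripts of a ligand, of a pair of receptors and of the receptor-like *Fgfrl1* were higher in the *Thop1*-KO subclones. Of the 10 members, 8 passed the filter on low counts and 4 were called higher, namely *Fgf4*, *Fgfr3*, *Fgfr1* and *Fgfrl1*. Over all genes tested, 1295 were called higher, which is 8.62%. None of the members was called lower by edgeR, DESeq2 or limma, against 777 genes or 5.17% of those tested, and all 5 members with an unadjusted p-value under 0.05 lay above the control. In either direction, 13.8% of all genes were called. DESeq2 called 5 members higher, *Fgf19* being the addition, against 14.1% of its 14115 genes with an adjusted p-value. The median log2 fold change was 1.92 over the 8 tested members and 0.06 over all genes tested. In RNA from whole cultures, fewer cells of a type and less RNA per cell cannot be told apart.

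**Figure D1:**
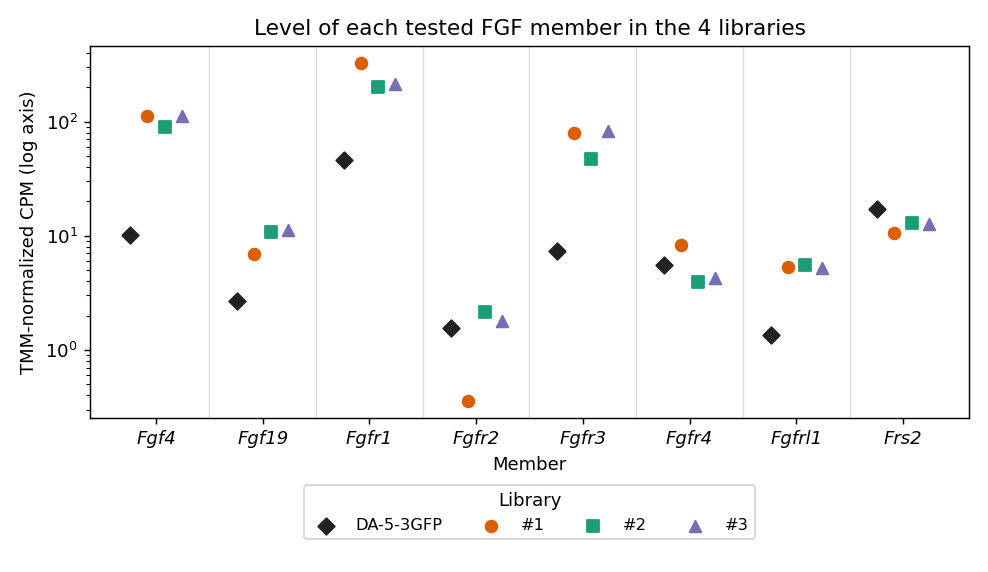
TMM-normalized CPM (log axis) of the 8 members that passed the filter on low counts, 1 point per library. DA-5-3GFP lies below all 3 subclones for *Fgf4*, *Fgf19*, *Fgfr1*, *Fgfr3* and *Fgfrl1*, inside their range for *Fgfr2* and *Fgfr4*, and above them for *Frs2*.

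*Fgf4* and *Fgfr3* had the highest log2 fold changes of the members, which did not differ beyond their standard errors. *Fgf4* encodes the autocrine ligand of ESCs and, the deposited annotation places *Fgf4* (ENSRNOG00000020890) at 218025810 to 218027220 of chromosome 1, plus strand. The level of *Fgf4* was 10.2 CPM in DA-5-3GFP and 113, 90.4 and 112 CPM in #1, #2 and #3. The subclones thus lay close together, at 105 ± 12.7 CPM (SD, n = 3), and 11.1, 8.90 and 11.0 times above the control. Raw counts were 151 in the control (exact Poisson 95% interval 128 to 177, counting error only) and between 1598 and 2016 in the subclones. The log2 fold change of *Fgf4* was 3.37 ± 0.33 at an edgeR adjusted p-value of 0.00678, and the gene ranked 48th of all genes by p-value. Here and below, the error is a standard error (SE) derived from the edgeR test, the absolute log2 fold change over the square root of the F statistic. Leaving out each subclone in turn gave 3.32 to 3.47, and *Fgf4* was called under all 12 alternative settings.

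The promoter of *Fgf4* in the RefSeq table of the GRCr8 assembly is shown because the gene is the called ligand. The 250 bases before its start, chr1:209452979-209453228 on the plus strand, are written 5′ to 3′, with matches to the searched motifs in capitals.

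Fgf4: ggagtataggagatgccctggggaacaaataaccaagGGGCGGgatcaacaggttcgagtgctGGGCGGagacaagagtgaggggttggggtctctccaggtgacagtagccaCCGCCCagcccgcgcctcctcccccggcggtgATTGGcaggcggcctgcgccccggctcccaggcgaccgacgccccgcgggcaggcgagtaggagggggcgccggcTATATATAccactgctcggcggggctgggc

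The motifs searched on both strands were the GC box GGGCGG bound by SP factors, the CCAAT box, the TATA box TATAAA, its variant TATATA, and the element AAGGTCA bound by nuclear receptors such as ESRRB. The window before *Fgf4* holds 3 GC boxes, 1 CCAAT box read as ATTGG, and 2 overlapping TATATA matches that begin 30 and 28 bases before the start. Among all 33469 promoter windows of this length, GGGCGG was present in 30.5%, CCAAT in 34%, TATAAA in 12.9%, TATATA in 5.45% and AAGGTCA in 3.99%. These are letter matches, and binding was not measured.

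*Fgf19* (ENSRNOG00000020899) is the next tested gene on chromosome 1, on the same strand from 218058405 to 218061693, 31185 bases beyond *Fgf4*. Its level was 2.69 CPM in DA-5-3GFP and 6.92, 10.8 and 11.3 CPM in #1, #2 and #3. All 3 subclones lay above the control, as was the case for 38.1% of all genes tested, and #1 was the lowest of them. The log2 fold change of *Fgf19* was 1.84 ± 0.49 (SE) at an adjusted p-value of 0.0522, which did not pass the threshold. The unadjusted p-value was 0.00749, DESeq2 gave an adjusted p-value of 0.00963, and the 12 alternatives spanned adjusted p-values of 0.00963 to 0.233. *Fgf19* was called when #1 was left out (adjusted p = 0.0252) or #2 was left out (adjusted p = 0.0104), and not without #3 (adjusted p = 0.192).

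*Fgf5* and *Fgf8*, the ligands of later stages, were at or near 0. *Fgf5* (ENSRNOG00000022631, chromosome 14, 12974921 to 12995584, minus strand) had 0 counts in all 4 libraries. Taking 3 counts as the one-sided limit of a count of 0, up to 0.202 CPM in the control library would go unseen. *Fgf8* (ENSRNOG00000017524, chromosome 1, 265493124 to 265498831, minus strand) had 0 counts in DA-5-3GFP and 1, 5 and 0 counts in #1, #2 and #3. A difference in either gene was not detectable at this depth, and neither entered the test.

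Among the receptors, *Fgfr1* and *Fgfr3* rose and *Fgfr2* and *Fgfr4* were not called. *Fgfr1* (ENSRNOG00000016050, chromosome 16, 71266248 to 71319449, minus strand) encodes the receptor through which FGF4 mainly acts in ESCs. Its level was 46.5 CPM in DA-5-3GFP and 328, 200 and 215 CPM in #1, #2 and #3. Subclone #1 stood above the other two, and the lowest subclone was still 4.29 times above the control. On average the subclones were at 248 ± 70.3 CPM (SD, n = 3), a log2 fold change of 2.41 ± 0.39 (SE) at an adjusted p-value of 0.0154. *Fgfr1* was called in 11 of 12 alternatives, the exception being limma on log2(FPKM + 1) without a filter (adjusted p = 0.170). A small nucleolar RNA gene with 40 counts in all libraries together overlaps *Fgfr1* on the opposite strand, and no other member overlaps a gene of the table.

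*Fgfr3* (ENSRNOG00000016818, chromosome 14, 82273070 to 82287706, minus strand) encodes another receptor tyrosine kinase of the family. In DA-5-3GFP it was at 7.40 CPM, against 79.6 in #1, 47.6 in #2 and 83.0 in #3. The control was 6.43 times below the lowest subclone and 11.2 times below the highest. The log2 fold change of *Fgfr3* was 3.24 ± 0.46 (SE) at an adjusted p-value of 0.0112 and ranged from 3.10 to 3.46 with each subclone left out. The gene was called in 11 of 12 alternatives, again with the exception of limma on log2(FPKM + 1) without a filter (adjusted p = 0.153).

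*Fgfr2* (ENSRNOG00000016374, chromosome 1, 200590953 to 200696928, minus strand), known as the receptor of the primitive endoderm and trophoblast lineages, was barely detected. Its counts were 23 in DA-5-3GFP and 6, 38 and 32 in #1, #2 and #3, or 1.55, 0.358, 2.15 and 1.78 CPM. The control lay inside the range of the subclones, whose highest value was 6.01 times the lowest, while that ratio had a median of 1.56 over all genes tested. Its log2 fold change was -0.11 ± 0.97 (SE) at an adjusted p-value of 0.946, and the sign turned to 0.35 without #1.

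*Fgfr4* (ENSRNOG00000016763, chromosome 17, 9990078 to 10004321, minus strand), best known as the receptor for endocrine FGF19 in liver, was at 5.59 CPM in DA-5-3GFP and 8.29, 3.90 and 4.23 CPM in #1, #2 and #3. The control again lay inside the range of the subclones. The log2 fold change was -0.03 ± 0.55 (SE) at an adjusted p-value of 0.975, with values from -0.45 to 0.16 when each subclone was left out and 0.02 when scaled by library size only. With standard errors of this size, the data for *Fgfr2* and *Fgfr4* do not show that either gene was the same in both genotypes.

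*Fgfrl1* (ENSRNOG00000024207, chromosome 14, 2018500 to 2032593, minus strand) encodes an FGF-binding membrane protein that lacks the kinase domain. It was low in every library, with 20 counts in DA-5-3GFP and 89, 98 and 94 counts in #1, #2 and #3. These values correspond to 1.35, 5.31, 5.54 and 5.23 CPM. The subclones differed from each other by a factor of only 1.06 and lay 3.98 times above the control on average. *Fgfrl1* had a log2 fold change of 1.99 ± 0.48 (SE) at an adjusted p-value of 0.0418. The call was lost without #1 (adjusted p = 0.0513), without #3 (adjusted p = 0.176) and with upper quartile scaling (adjusted p = 0.0504), and it was made in 6 of 12 alternatives.

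The windows before *Fgfr3*, at chr14:81227210-81227459 on the minus strand, and *Fgfrl1*, at chr14:1166335-1166584 on the minus strand, are shown because these are the other called members found in the RefSeq promoter table. The promoter table used here holds 8 of the 10 members, and the windows of *Fgfr1* and *Fgf19* were not analysed here. Capitals mark matches to the same motifs.

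Fgfr3: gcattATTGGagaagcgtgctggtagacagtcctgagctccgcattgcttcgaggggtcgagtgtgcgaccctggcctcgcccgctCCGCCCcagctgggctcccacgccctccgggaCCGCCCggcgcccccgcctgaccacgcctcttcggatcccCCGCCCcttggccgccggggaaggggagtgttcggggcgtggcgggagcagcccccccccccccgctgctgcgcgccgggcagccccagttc

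Fgfrl1: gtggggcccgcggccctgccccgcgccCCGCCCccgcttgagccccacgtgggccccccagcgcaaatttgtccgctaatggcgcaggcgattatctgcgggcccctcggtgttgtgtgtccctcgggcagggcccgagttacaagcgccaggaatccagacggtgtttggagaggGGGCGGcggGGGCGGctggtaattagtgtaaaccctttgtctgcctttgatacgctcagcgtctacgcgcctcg

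Like that of *Fgf4*, each of these windows holds 3 GC boxes, and the GC content was 68.8% for *Fgf4*, 74.4% for *Fgfr3* and 67.2% for *Fgfrl1*. The members that were not called or not tested hold them as well, with 9 GC boxes before *Fgf8*, 2 each before *Fgfr2*, *Fgfr4* and *Frs2*, and 1 before *Fgf5*. The window of *Fgfr3* also has a CCAAT box and that of *Fgfrl1* has none. AAGGTCA was found in none of the 8 windows, which says only that these letters are not there.

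*Frs2* (ENSRNOG00000005642, chromosome 7, 60128508 to 60210518, minus strand), the docking protein downstream of all 4 receptors, did not pass the test. Its level was 17.1 CPM in DA-5-3GFP and 10.5, 13.0 and 12.6 CPM in #1, #2 and #3. The control lay above all 3 subclones, which was also the case for 37.6% of all genes tested. The log2 fold change of *Frs2* was -0.51 ± 0.33 (SE) at an adjusted p-value of 0.305, and no alternative called it.

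**Figure D2:**
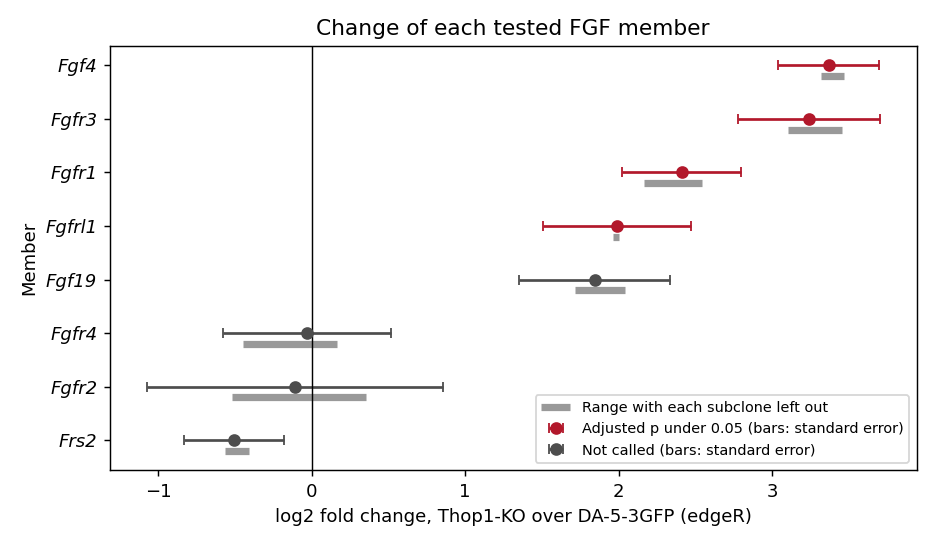
Log2 fold change of each tested member, *Thop1*-KO over DA-5-3GFP, from edgeR, with bars for the standard error and grey bands for the range when each subclone was left out in turn. *Fgf4*, *Fgfr3*, *Fgfr1* and *Fgfrl1* (red) were called, from 3.37 down to 1.99, and the bands of *Fgfr4* and *Fgfr2* cross 0.

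Fibroblasts express *Fgfr1*, and the fibroblast marker sum was higher in every subclone (330, 663 and 421 CPM) than in DA-5-3GFP (209 CPM), as were the called members. *Col1a1* made up most of that sum, at 190 CPM in DA-5-3GFP and 304, 555 and 374 CPM in #1, #2 and #3. In the same list *Col3a1*, *Postn*, *Pdgfrb*, *Twist1* and *Prrx1* were also higher in every subclone than in the control. *Col3a1* was at 6.39 CPM in DA-5-3GFP and 16.2, 80.0 and 36.9 CPM in #1, #2 and #3. *Acta2* was lower in every subclone than in the control, and for *Col6a1* the control lay inside their range. Among the subclones, #2 had the highest marker sum. *Fgfr1*, *Fgfr3* and *Fgf4* were lowest in #2, at 200, 47.6 and 90.4 CPM, and *Fgfrl1* was highest there, at 5.54 CPM. Without #2 the log2 fold changes were 3.47 for *Fgf4*, 3.46 for *Fgfr3*, 2.55 for *Fgfr1* and 1.96 for *Fgfrl1*. The part of feeder cells in these levels was not tested.

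Levels of different genes were compared in FPKM, which divides by gene length. *Fgf4* was first and *Fgfr1* second among the members in all 4 libraries. In DA-5-3GFP, *Fgf4* was at 17.1 and *Fgfr1* at 13.5 FPKM, followed by *Fgf19* at 4.04, *Frs2* at 2.56, *Fgfr3* at 2.04 and *Fgfr4* at 1.64 FPKM. *Fgfr2* and *Fgfrl1* came last of the detected members, at 0.320 and 0.303 FPKM. In the subclones the means were 177 ± 21.2 FPKM for *Fgf4* and 72.1 ± 21.0 FPKM for *Fgfr1* (SD, n = 3), so the top pair lay apart. *Fgfr3* at 19.3 ± 5.33 and *Fgf19* at 14.5 ± 3.50 FPKM overlapped and changed places between subclones. *Frs2* at 1.79 ± 0.189, *Fgfr4* at 1.61 ± 0.732 and *Fgfrl1* at 1.20 ± 0.0429 FPKM did not differ beyond their spread, except that *Frs2* lay above *Fgfrl1* in every subclone. The gene models of the 4 ligands have lengths that are multiples of 3, as coding sequence without UTRs would have. Comparison of a ligand with a receptor is limited for this reason. The lengths of *Fgfr4* and *Frs2* are multiples of 3 as well, so the property alone does not show that a model lacks UTRs.

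Receptor mRNA was dominated by *Fgfr1* in both genotypes, while its composition below *Fgfr1* differed. The summed FPKM of the 4 receptors was 17.5 in DA-5-3GFP and 121, 72.9 and 86.0 in #1, #2 and #3, which is 5.31-fold higher on average. *Fgfr1* made up 77.2% of that sum in DA-5-3GFP and 79.6%, 79.8% and 71.9% in the subclones, so the control lay inside their range. The share of *Fgfr3* was 11.6% in DA-5-3GFP and 18.3%, 18.0% and 26.3% in #1, #2 and #3, above the control in each. *Fgfr4* took 9.37% of the sum in DA-5-3GFP and 2.03%, 1.58% and 1.43% in the subclones. For *Fgfr2* the share was 1.82% against 0.0616%, 0.610% and 0.423%. Thus *Fgfr3* and *Fgfr4* were almost level in DA-5-3GFP, at a ratio of 1.24, whereas *Fgfr3* was between 8.99 and 18.4 times *Fgfr4* in the subclones. These shares have no test, since the control is 1 library.

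**Figure D3:**
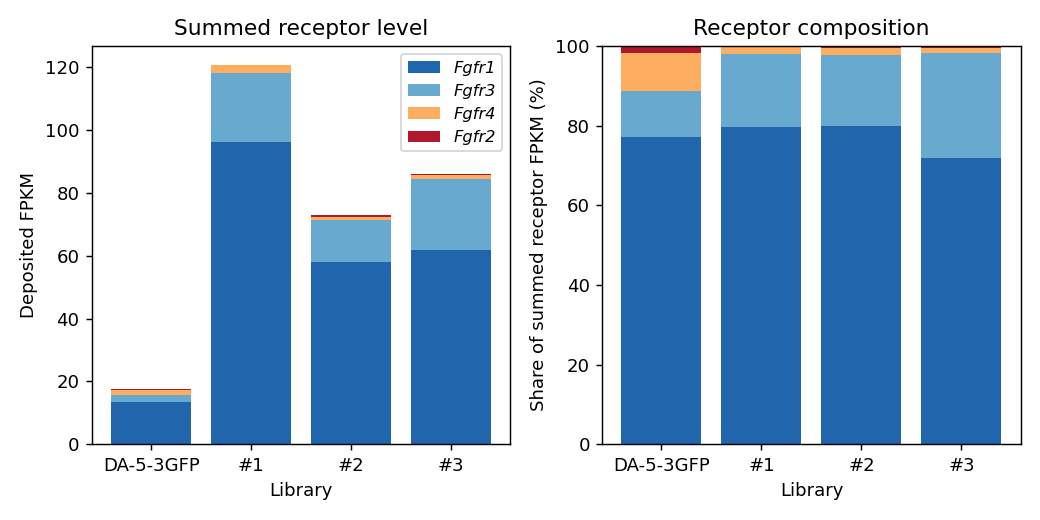
Deposited FPKM of *Fgfr1* to *Fgfr4*, stacked per library (left), and the same values as percent of their sum (right). The sum is 17.5 in DA-5-3GFP and at least 72.9 in the subclones, the share of *Fgfr1* is between 71.9% and 79.8% in all 4 libraries, and the share of *Fgfr4* is 9.37% in DA-5-3GFP and at most 2.03% in the subclones.

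For each called member, the tested genes closest in profile were found by Euclidean distance between log2(CPM + 0.5) values centred over the 4 libraries. For *Fgf4* these were *Snrk*, *Lmnb2* and *Fbxo10*, at distances of 0.0564, 0.0617 and 0.0768. *Fgfr3* was closest to *Rest*, *Plekha7* and *Zbtb43*, between 0.0754 and 0.127, and *Fgfr1* to an unannotated locus of the table, *Pacs1* and *Amigo1*, between 0.103 and 0.132. Near the profile of *Fgfrl1* were *Erlin2* and *Srgap2*, at 0.0514 and 0.0546. Among the members themselves, *Fgf4* and *Fgfr3* were the closest called pair, at 0.406, whereas *Fgf4* and *Fgfr1* were 0.920 apart. With 4 libraries, such a distance mainly describes the size of the step from the control and the order of the subclones.

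The other genes of the pathway were read from 6 lists with 96 genes, of which 92 were in the table and 76 were tested. Of these, 12 were called higher and 5 lower, against 8.62% and 5.17% of all genes tested, and DESeq2 called 24. Their median log2 fold change was 0.73, or 0.66 with genes at 0 counts in the control set to their lower bound, against 0.06 over all genes. These calls depended on the subclones compared. Without #3 only *Gab1* and *Il17rd* of the 76 genes were called, whereas without #2 there were 28 higher and 13 lower calls.

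**Figure D4:**
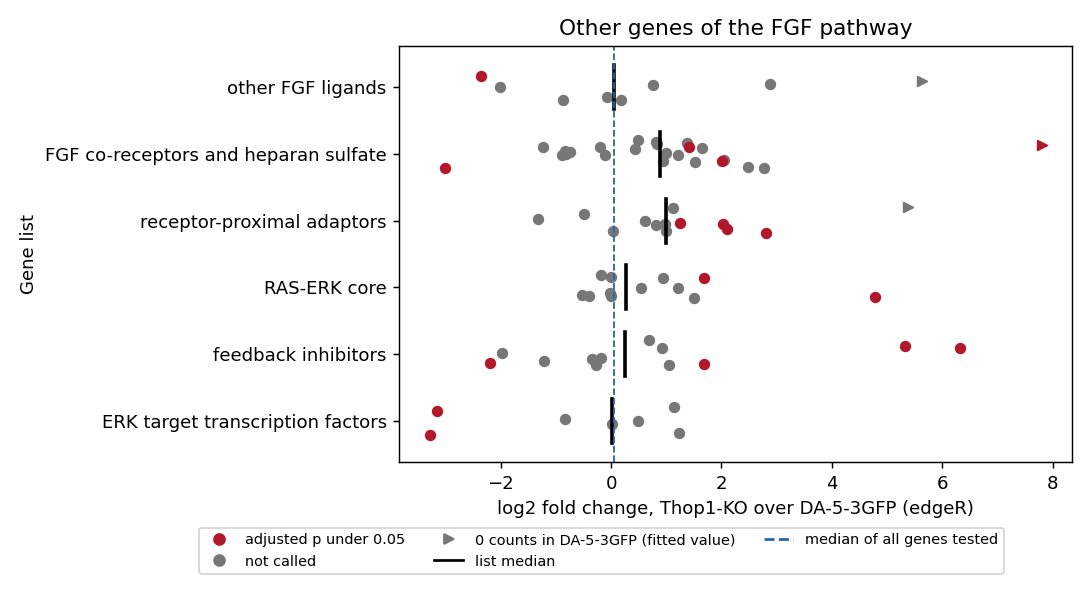
Log2 fold change of each tested gene of the 6 pathway lists, *Thop1*-KO over DA-5-3GFP, from edgeR, with called genes in red, list medians as black bars and the median of all genes tested (0.06) as a dashed line. Triangles mark genes with 0 counts in DA-5-3GFP, whose fitted values are no measure of size. The medians of the co-receptor list (0.88) and the adaptor list (0.99) lie farthest from that line.

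Of the other FGF ligands, 8 of 18 were tested and the remaining 10 had at most 11 counts in any library. None was called higher, 1 was called lower by edgeR and also 1 by DESeq2, and 2 had an unadjusted p-value under 0.05. *Fgf13*, an intracellular FGF-like protein that is not secreted, fell from 4.31 CPM in DA-5-3GFP to 0.775, 0.735 and 1.00 in the subclones (log2 fold change -2.35 ± 0.54 SE, adjusted p = 0.0375 from edgeR, and 0.131 without #3). The ligand with the highest mean CPM in this list, *Fgf17*, was at 21.5 CPM against 10.8, 13.3 and 11.2, with an adjusted p-value of 0.108 by edgeR.

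Co-receptors, heparan sulfate proteoglycans and the enzymes that build or trim heparan sulfate had 24 tested genes, with 3 called higher and 1 lower by edgeR, 14 at an unadjusted p-value under 0.05, and a median log2 fold change of 0.88. DESeq2 called 7 higher and 2 lower, and edgeR without #2 called 9 higher and 5 lower. *Sdc4*, a cell surface proteoglycan, fell from 13.5 CPM to 1.31, 2.49 and 1.22 (log2 fold change -3.00 ± 0.48 SE, adjusted p = 0.0156, and 0.0527 without #3). A related proteoglycan, *Sdc1*, rose from 5.45 CPM to between 13.7 and 14.9 (log2 fold change 1.40 ± 0.36 SE, adjusted p = 0.0486). That call was lost without #1 (adjusted p = 0.0573) and without #3 (adjusted p = 0.209). *Extl3*, a glycosyltransferase of heparan sulfate synthesis, rose from 5.25 CPM to 25.8, 17.3 and 20.3 (log2 fold change 2.01 ± 0.41 SE, adjusted p = 0.0279). *Gpc3*, a glypican, had 0 counts in DA-5-3GFP and 18, 37 and 32 in the subclones, at least 8.17-fold higher against a floor of 3 counts in the control (adjusted p = 0.0294). Without #3 the adjusted p-value was 0.0996 for *Extl3* and 0.0958 for *Gpc3*. The gene of this list with the highest mean CPM over the 4 libraries, the sulfatase *Sulf2*, was at 123 CPM against 218, 160 and 269, with an adjusted p-value of 0.146, and of 0.00416 without #2. The glypican *Gpc4*, named after its values were seen, was above *Sulf2* in the control, at 258 CPM against 82.3, 148 and 98.3 in the subclones, with adjusted p-values of 0.0539 by edgeR and 0.0104 by DESeq2.

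The adaptors that work with *Frs2* at the receptor had 13 tested genes, of which 4 were called higher and none lower by edgeR, with 7 at an unadjusted p-value under 0.05 and 5 called by DESeq2. Their median log2 fold change was 0.99, or 0.97 with the gene at 0 counts in the control at its bound. *Gab1*, the docking protein bound by GRB2, rose from 9.42 CPM to 58.3, 64.9 and 75.4 (log2 fold change 2.81 ± 0.33 SE, adjusted p = 0.00767) and was called in all 12 alternatives. *Crk* rose from 4.10 CPM to between 15.1 and 19.7, with a log2 fold change of 2.11 (adjusted p = 0.0220). *Shc1*, which had the highest mean CPM of the list over the 4 libraries, rose from 78.4 CPM to between 177 and 194, with a log2 fold change of 1.24 (adjusted p = 0.0254). *Cbl*, a ubiquitin ligase that removes active receptors, rose from 2.15 CPM to 6.26, 8.77 and 11.5 (adjusted p = 0.0498), and had an adjusted p-value above 0.05 in 7 alternatives. The adjusted p-values of *Crk*, *Shc1* and *Cbl* without #3 were 0.0953, 0.112 and 0.183.

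In the RAS-ERK core, 2 of 12 genes were called higher and none lower by edgeR, 4 had an unadjusted p-value under 0.05, DESeq2 called 3, and the median log2 fold change was 0.28. *Ksr1*, the scaffold of the cascade, had 1 count in DA-5-3GFP and 36, 46 and 25 in the subclones, a ratio of 30.4 with a counting interval of 5.33 to 1209 (adjusted p = 0.0343, and 0.0848 without #3). *Araf*, with the highest mean CPM of the list, was at 468 CPM in DA-5-3GFP and at 1494, 442 and 1330 in the subclones. Subclone #2 thus sat beside the control, and *Araf* was not called (log2 fold change 1.22, adjusted p = 0.224) except without #2, where its log2 fold change was 1.59 (adjusted p = 6.96e-05).

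Feedback inhibitors of the pathway moved in both directions, with 3 called higher and 1 lower of 12 tested, the same counts by DESeq2, 5 at an unadjusted p-value under 0.05, and a median log2 fold change of 0.25. *Il17rd*, which encodes the membrane inhibitor SEF, rose from 1.01 CPM to 128, 30.4 and 85.4 (log2 fold change 6.32 ± 1.07 SE, adjusted p = 0.0173). *Spry1* had 1 count in DA-5-3GFP and 66, 41 and 49 in the subclones, a ratio of 44.5 with a counting interval of 7.82 to 1758 (adjusted p = 0.0203). Its paralog *Spry4* fell from 46.1 CPM to 14.3, 5.94 and 10.2 (log2 fold change -2.18 ± 0.45 SE, adjusted p = 0.0278). *Spred2* rose from 11.1 CPM to 36.8, 28.1 and 42.6 (log2 fold change 1.69, adjusted p = 0.0332), and *Spry2*, with the highest mean CPM over the 4 libraries, was at 74.2 CPM against 63.3, 53.0 and 79.0 (adjusted p = 0.680). Without #3 the adjusted p-values of *Spry1*, *Spry4* and *Spred2* were 0.0641, 0.0763 and 0.136.

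The ERK target genes, most of them transcription factors, had 7 tested genes, none called higher and 2 called lower by edgeR. The same number passed an unadjusted p-value of 0.05 and was called by DESeq2. *Etv4* fell from 125 CPM to 5.25, 26.4 and 10.6 (log2 fold change -3.15 ± 0.68 SE, adjusted p = 0.0318) and *Etv1* from 7.81 CPM to 0.417, 1.24 and 0.724 (log2 fold change -3.28 ± 0.60 SE, adjusted p = 0.0211). *Etv5*, of the same PEA3 family and with the highest mean CPM of the list, was at 331 CPM against 494, 358 and 535, with an adjusted p-value of 0.272 by edgeR, and of 0.0207 without #2. Without #3 the adjusted p-value was 0.0629 for *Etv4* and 0.0714 for *Etv1*. The median of the list was 0.01, against 0.06 over all genes tested.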

How the data were processed

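Poly(A) RNA libraries of 1 DA-5-3GFP culture and 3 *Thop1*-KO subclones were analysed, grouped by the genotype in their labels. The authors trimmed reads with the FASTX toolkit and deposited raw counts per gene, and the submitters' processing notes name HISAT2 2.0.5 and featureCounts 1.5.0-p3. FPKM, also deposited, is the count over gene length times 1 constant for each library. The genome build and the use of strand are not given in the sources used here, so overlapping genes are uncertain and coordinates are those of the deposited annotation. Columns of annotation were used for names and positions only.

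Counts were tested with edgeR 4.0.16 in R 4.3.3 (filterByExpr with a minimum count of 10, TMM, quasi-likelihood test, Benjamini-Hochberg over 15028 genes, threshold 0.05). The code was tested on simulated counts. Alternatives were 3 other scalings, DESeq2 1.42.0, no filter, at least 10 counts in every library, limma 3.58.1 on log2 FPKM with a pseudocount of 1 or 0.1, or of 1 with all genes kept, and leaving out each subclone. Intervals are exact Poisson 95% intervals or, for ratios, exact conditional binomial ones, and cover counting error only. Named genes were all members, *Thop1*, up to 4 called genes per pathway list by p-value, the gene of highest mean CPM in each list, and the 3 nearest profiles of each called member. A gene that these rules name is not reported here. Members and lists were chosen with earlier results of these data known. Summaries used Python 3.11.15 with pandas 2.3.3, numpy 2.4.6 and scipy 1.17.1, and plots matplotlib 3.10.9.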

Additional observations from a re-analysis of the deposited data

How the results depend on the processing

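No paired analysis was possible because the design holds 1 control library and no pairs. Over all genes tested, 1295 were called higher in the main test, 1984 with DESeq2 and 218 with limma on unfiltered log2(FPKM + 1) values, and between 354 and 3096 with a subclone left out. When a subclone was left out, the lone control library was assumed to vary like the subclones. The 777 lower calls became between 103 and 2476 in this way, the lowest in both directions being without #3 and the highest without #2. Members called higher numbered 4, and 1, *Fgf4*, under that limma setting. Pathway genes called higher numbered 12, and 3 under that setting, with 2 to 28 when a subclone was left out. Pathway genes called lower numbered 5, and 1 both with limma on log2(FPKM + 0.1) and with limma on unfiltered log2(FPKM + 1), with 0 to 13 when a subclone was left out.

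*Fgf19* was called with DESeq2 (log2 fold change 1.84), in edgeR without a filter (1.87, adjusted p = 0.0497), with limma on log2(FPKM + 1) (1.59, adjusted p = 0.0463) and on log2(FPKM + 0.1) (1.78, adjusted p = 0.0413), and ranged from 1.72 to 2.04 with a subclone left out. Without a filter, limma on log2(FPKM + 1) gave 2.29 for *Fgfr1*, 2.70 for *Fgfr3* and 0.76 for *Fgfrl1* (adjusted p = 0.170, 0.153 and 0.290), none of them called. *Fgfrl1* was also not called with upper quartile scaling (1.89), with limma on log2(FPKM + 1) (0.76, adjusted p = 0.0694) or on log2(FPKM + 0.1) (1.69, adjusted p = 0.0674), and ranged from 1.96 to 2.01 with a subclone left out. *Fgfr2* ranged from -0.52 to 0.35 with a subclone left out. *Fgfr4* was 0.022 with library size only and -0.45 to 0.16 with a subclone left out. Where a call changed with the setting, the cause was not tested. As shares of the summed counts without length, the mean receptor shares of the subclones moved by less than their SD, and the share of *Fgfr2* in DA-5-3GFP was 2.54% in place of 1.82%. Depth limits *Fgf5* and *Fgf8*, which had at most 5 counts in a library, and *Fgfr2* and *Fgfrl1*, with 20 to 23 counts in the control.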

Other observations

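The tested genes next to the members were read after their own values were known, so the choice is not independent of the results. *Fgf4* and *Fgf19* are followed on chromosome 1 by *Lto1*, 14423 bases beyond *Fgf19*, which encodes a factor of iron-sulfur cluster and ribosome assembly. *Lto1* was at 3.84 CPM in DA-5-3GFP and between 11.5 and 17.3 CPM in the subclones (log2 fold change 1.99 ± 0.44 SE, adjusted p = 0.0338 from edgeR). *Fgf4*, *Fgf19* and *Lto1*, which lie in a row among the tested genes, thus lay above the control in every subclone, although only *Fgf4* and *Lto1* were called. On the other side of *Fgf4*, an unannotated locus 5960 bases away was at 2.02 CPM against 0.179 to 0.679 CPM and was not called (log2 fold change -2.25, adjusted p = 0.121). Beyond that locus, *Fgf3* lies on the plus strand from 218003018 to 218006942. Named after its values were seen, *Fgf3* was at 2.36 CPM against 0.835, 3.96 and 1.89 and was not called (log2 fold change -0.08).

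*Fgfr3* has the mitochondrial membrane gene *Letm1* at 5720 bases, which rose from 14.3 CPM to between 48.2 and 49.8 CPM (log2 fold change 1.78 ± 0.29 SE, adjusted p = 0.0161). On its other side *Tacc3*, a spindle gene, was at 180 CPM against 133 to 165 CPM and was not called (adjusted p = 0.447). *Ate1*, the neighbour of the uncalled *Fgfr2* at 113843 bases, rose as well, with a log2 fold change of 1.73 (adjusted p = 0.0449). The tested neighbours of *Fgfr1*, *Letm2* and AABR07026311.1, were not called (adjusted p = 0.371 and 0.0545), nor were those of *Fgfrl1*, *Rnf212* and *Idua* (adjusted p = 0.0784 and 0.744).

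Ratios between members within a library were taken in FPKM. *Fgf4* was 1.27 times *Fgfr1* in DA-5-3GFP and between 1.99 and 3.02 times in the subclones. *Fgfr1* was 5.29 times its docking protein *Frs2* in DA-5-3GFP and between 30.0 and 60.8 times in the subclones, and *Fgf4* was 4.24 times *Fgf19* against 9.40 to 18.3 times. *Fgfr4* was 5.14 times *Fgfr2* in DA-5-3GFP, 2.59 and 3.38 times in #2 and #3, and above the control's ratio in #1. These ratios have no test, and they combine the changes of both genes.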
